A study of Rattus norvegicus with 6 samples.

Results

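The genes described here encode the proteases that cut the extracellular matrix and their inhibitors: the matrix metalloproteinases (Mmp), the ADAMTS proteases (Adamts), the ADAMTS-like proteins (Adamtsl) and the tissue inhibitors of metalloproteinases (Timp). They were chosen by symbol alone, as every gene of the deposited table whose symbol is one of these 4 names followed by a number. This gave 44 of 17525 genes, made up of 17 Mmp, 18 Adamts, 5 Adamtsl and 4 Timp genes. Messenger RNA was measured in Rattus norvegicus, in primary cells labelled as ovarian granulosa cells, which line the follicle and nurse the oocyte. Per the design text, SD rats aged 21 days received 60 IU of PMSG, a gonadotropin that makes follicles grow, and the ovaries were dispersed with enzyme 48 h later for culture. The titles give 3 libraries of a group called ATR and 3 of a group called Control, and the Control libraries are not analysed here. Long-term atrazine exposure is named in the series' title, atrazine being a herbicide, but no label spells out ATR. The sources used here give no dose, no length of exposure and no word on whether animals or cultures were exposed. Every value below is therefore a level in the ATR libraries or a spread between them, and none is an effect of an exposure. Whether the 3 libraries stem from different animals, pools or dishes is not stated, so p-values measure only the spread between these samples, which may be technical.

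Matrix metalloproteinases are zinc enzymes made with an inhibitory propeptide, which other proteases such as furin, plasmin or another metalloproteinase remove. ADAMTS proteases add thrombospondin repeats that hold them to the matrix, while the ADAMTS-like proteins have the repeats without a protease domain. TIMPs block the active site of the enzymes in a complex of a single molecule of each. In the ovary these proteins are known for reshaping the follicle wall at ovulation, and ADAMTS1 is known in mouse for cutting versican in the matrix around the oocyte.

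The libraries ATR 1, ATR 2 and ATR 3 held 18677212 to 19170552 reads assigned to genes. Of the 10 granulosa markers, 8 reached 1 TPM (a level scaled for transcript length and library size), among them Foxl2 at 48.0 to 63.6 TPM, while Cyp19a1 (aromatase) and Amh stayed at or below 0.14 TPM in every library. Markers of other cells were present too. In each library the 10 surface epithelium and mesothelium markers summed to 2177 to 2332 TPM, the 7 measured smooth muscle and pericyte markers to 16342 to 17684 TPM and the 6 measured leukocyte markers to 95.1 to 120.4 TPM. These sums rest on few genes. Tagln (10563 to 11357 TPM) and Acta2 (5282 to 5853 TPM) made up most of the muscle sum, with Notch3 at 1.24 to 1.42 TPM, and Upk3b (1316 to 1513 TPM) most of the epithelial one, with Krt19, Epcam and Muc16 at or below 0.46 TPM. The endothelial, theca and oocyte markers each summed to at most 4.53 TPM. Which cell type the protease transcripts came from cannot be told apart in such bulk libraries, where a change in the number of cells of a type and a change in RNA per cell look the same.

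The promoters of 5 of these genes, Mmp13, Mmp12, Mmp3, Mmp10 and Mmp8, are shown because these genes lie side by side on the chromosome. Of the 5, 4 are the only matched members with an exact match to TGANTCA, the AP-1 motif searched for. Their means lay under 1 TPM but for Mmp12, which had the motif and a mean of 5.1 TPM. In the rat RefSeq annotation of assembly GRCr8 these 5 stand in a run of 10 Mmp genes with no other coding gene between them, and the other 5 of the run are not analysed here. The promoters of Adamts1 and Timp1, both well expressed, follow for contrast. Each is the RefSeq GRCr8 window from 250 bases before to 50 bases after the annotated start, 5′ to 3′ on the gene's strand. Capitals mark TGANTCA (the AP-1 motif, which reads as TGANTCA on both strands), TATAAA (the TATA box) and GGGCGG (the GC box), the last 2 of them searched on both strands, so a match on the opposite strand appears as TTTATA or CCGCCC.
Mmp13, chr8:12782579-12782878, plus strand: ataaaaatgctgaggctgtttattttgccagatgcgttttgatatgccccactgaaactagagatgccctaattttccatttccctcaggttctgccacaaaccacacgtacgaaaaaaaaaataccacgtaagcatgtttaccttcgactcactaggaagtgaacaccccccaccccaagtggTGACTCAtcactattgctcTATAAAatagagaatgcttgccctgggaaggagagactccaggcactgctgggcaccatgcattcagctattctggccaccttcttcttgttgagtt
Mmp12, chr8:12866402-12866701, plus strand: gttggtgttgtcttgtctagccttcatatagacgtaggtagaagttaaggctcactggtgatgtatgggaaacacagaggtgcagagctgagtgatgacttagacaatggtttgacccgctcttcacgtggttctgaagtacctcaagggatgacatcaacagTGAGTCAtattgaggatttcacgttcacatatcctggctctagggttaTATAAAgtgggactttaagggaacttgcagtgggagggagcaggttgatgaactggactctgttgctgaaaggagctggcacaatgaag
Mmp3, chr8:12925031-12925330, plus strand: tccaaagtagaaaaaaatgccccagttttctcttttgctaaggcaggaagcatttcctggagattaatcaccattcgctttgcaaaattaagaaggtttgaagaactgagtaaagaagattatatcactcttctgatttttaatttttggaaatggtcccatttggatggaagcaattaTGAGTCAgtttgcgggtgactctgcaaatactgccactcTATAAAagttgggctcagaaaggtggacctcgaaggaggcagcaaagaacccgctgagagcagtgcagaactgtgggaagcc
Mmp10, chr8:12974457-12974756, plus strand: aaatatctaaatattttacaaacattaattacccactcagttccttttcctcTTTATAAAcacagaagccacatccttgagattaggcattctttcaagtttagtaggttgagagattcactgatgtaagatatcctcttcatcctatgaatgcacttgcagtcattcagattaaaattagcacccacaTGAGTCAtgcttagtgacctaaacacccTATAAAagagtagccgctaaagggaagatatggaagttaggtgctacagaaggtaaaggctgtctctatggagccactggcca
Mmp8, chr8:13008640-13008939, plus strand: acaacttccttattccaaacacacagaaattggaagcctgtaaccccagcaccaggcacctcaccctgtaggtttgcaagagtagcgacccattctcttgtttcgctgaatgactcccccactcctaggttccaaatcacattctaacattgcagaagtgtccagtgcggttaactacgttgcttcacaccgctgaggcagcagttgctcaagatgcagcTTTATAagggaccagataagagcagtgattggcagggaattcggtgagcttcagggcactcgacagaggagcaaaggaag
Adamts1, chr11:38427335-38427634, minus strand: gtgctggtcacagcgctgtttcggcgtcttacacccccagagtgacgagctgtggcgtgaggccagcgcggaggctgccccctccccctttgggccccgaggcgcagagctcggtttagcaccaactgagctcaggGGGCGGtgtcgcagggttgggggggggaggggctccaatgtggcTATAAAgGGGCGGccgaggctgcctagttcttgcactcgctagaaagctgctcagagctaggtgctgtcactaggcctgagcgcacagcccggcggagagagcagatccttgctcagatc
Timp1, chrX:3771073-3771372, minus strand: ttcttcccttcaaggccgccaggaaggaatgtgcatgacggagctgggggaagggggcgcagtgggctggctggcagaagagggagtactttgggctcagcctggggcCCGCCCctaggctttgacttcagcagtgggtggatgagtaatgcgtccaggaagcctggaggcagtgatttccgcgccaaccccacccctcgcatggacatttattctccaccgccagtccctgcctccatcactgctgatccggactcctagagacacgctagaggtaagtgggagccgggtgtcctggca

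TGANTCA was found 66 bases before the start in Mmp13, 87 in Mmp12, 71 in Mmp3 and 61 in Mmp10. In each of these 4 genes a TATAAA on the gene's strand lay nearer the start, 47, 39, 32 and 33 bases before it in the same order of genes. In Mmp10 2 further TATAAA matches, on opposite strands and overlapping each other, lay 196 and 198 bases before the start. Mmp8 had a TATAAA match on the opposite strand alone. Windows were matched for 33 of the 44 members, and for 3 of them that list several starts the first listed was used. Of these 33, TGANTCA was in 4 of the 5 clustered genes and in 0 of the other 28, which stayed at 0 when any listed window was allowed. It was in 7.33% of all 27457 RefSeq windows. GGGCGG was in 0 of the 5 clustered windows and 20 of the other 28, against 34.9% of all windows. TATAAA, on either strand, was in all 5 clustered windows and 4 of the other 28, against 14.3% of all windows. Adamts1 was among those 4, with a match on its own strand 70 bases before the start. With any listed window allowed, TATAAA was in 5 of the other 28. Only exact matches were counted, so a variant of a motif was not found in any window, Timp1 included. A match is a description of letters and not a site in use. Mmp14, Mmp2, Mmp9, Mmp16, Mmp17, Mmp19, Adamts5, Adamts8, Adamts15, Adamts16 and Adamts19 had no match in the promoter table.

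**Figure D1:**
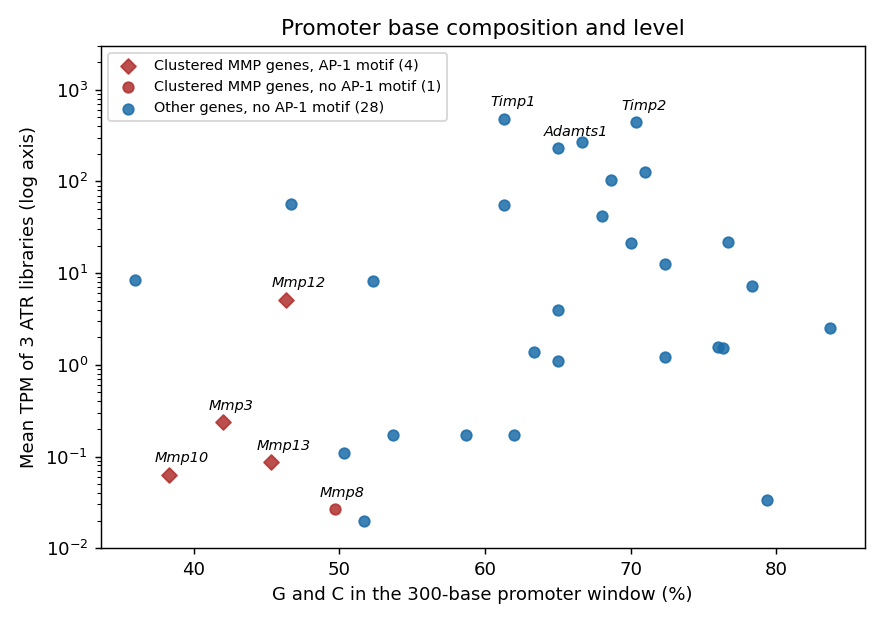
Mean level over the 3 ATR libraries (TPM, log axis) against the share of G and C bases in the promoter window (%), 1 point a gene for the 33 matched genes. The 5 clustered MMP genes (red) have 38.3% to 49.7% G and C. Of these, 4 hold an exact TGANTCA, the AP-1 motif searched for (diamonds), which none of the other 28 genes (blue) does. Variants of the motif were not searched.

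The base composition of the windows differed with level. The median share of G and C was 68.3% for the 12 matched members at 10 TPM or more, 65.0% for the 11 at 1 to 10 TPM and 51.0% for the 10 under 1 TPM. The whole table had the same order, with medians of 61.7%, 59.3% and 53.8% over its matched genes in these 3 ranges, so the order is not particular to the proteases. The clustered genes had a median of 45.3%.

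The means of the 44 genes ran from 478 TPM for Timp1, which ranked 330 among all genes of the table, to 0.020 TPM for Adamts13. Of the 44, 30 had a mean of 1 TPM or more, or 68.2%, against 71.4% of all genes, and 7 had 100 TPM or more, or 15.9%, against 10.7%. The median member stood at 4.55 TPM and the median gene of the table at 10.1 TPM. All 44 together made up 0.255% of all TPM. The order of the 7 leading genes was Timp1, Mmp14, Timp2, Mmp23, Adamts1, Adamts10 and Timp3. Within that order the library values of Timp1 and Mmp14 overlapped, and each other gene lay below its neighbour above in every library.

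**Figure D2:**
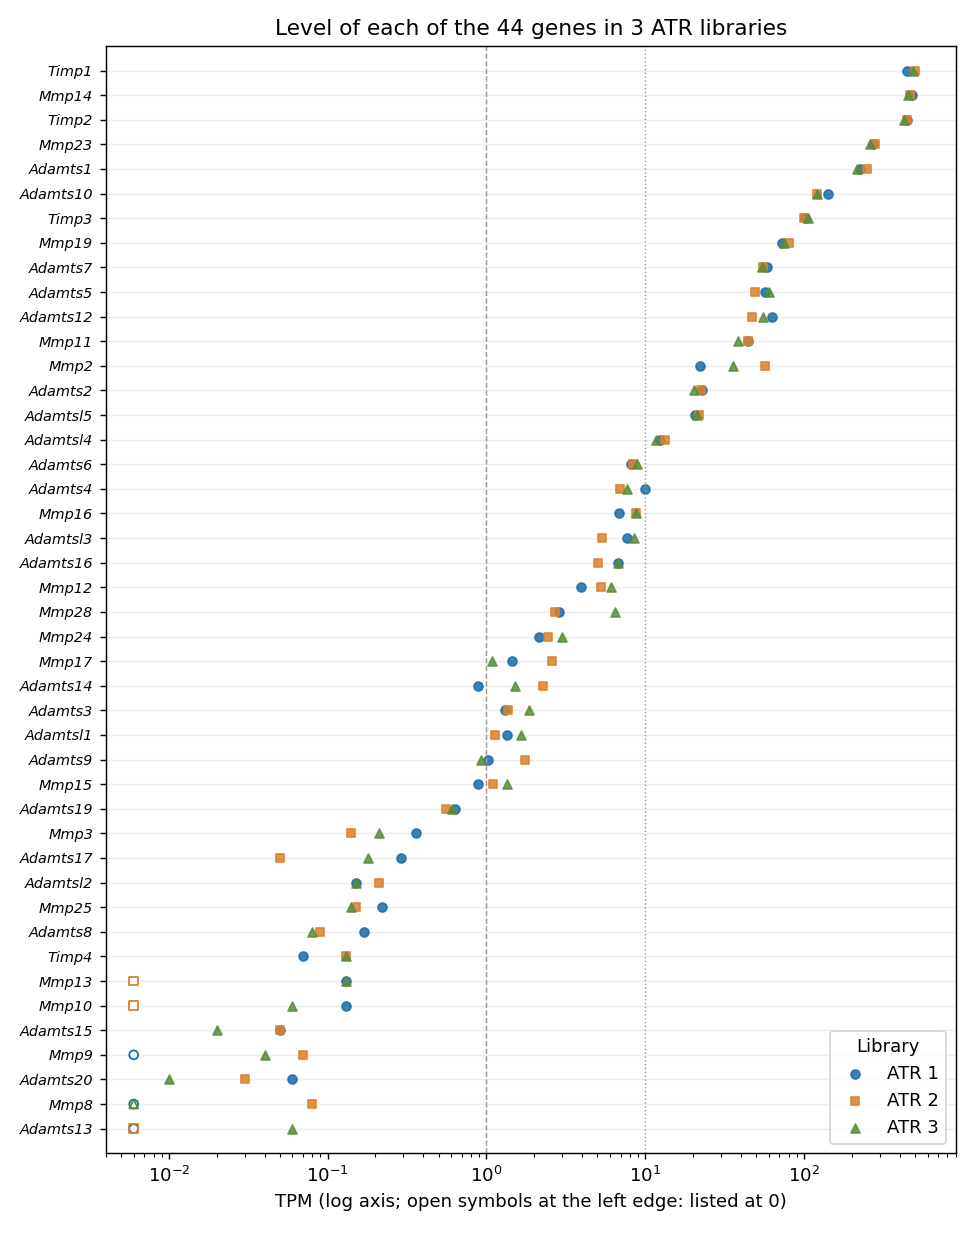
TPM (log axis) of each of the 44 genes in ATR 1, ATR 2 and ATR 3, ordered by mean, with dashed and dotted lines at 1 and 10 TPM. Open symbols at the left edge are values listed at 0. Timp1, Mmp14 and Timp2 lie between 428 and 499 TPM, while 13 genes have too few reads to be ranked.

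Among the MMPs, a membrane-anchored collagenase led and the secreted collagenases were nearly unread. Mmp14 (MT1-MMP, which cuts fibrillar collagens at the cell surface and activates the precursor of MMP2) measured 477 TPM in ATR 1, 466 in ATR 2 and 450.2 in ATR 3, the order of libraries used for each set of values below. It made up 49.1% to 52.7% of the summed TPM of the 17 Mmp genes in a library. Mmp23, which is anchored by its propeptide and freed by furin, came next at 271, 279 and 261 TPM, or 0.582 ± 0.0157 of the Mmp14 level (SD, n = 3). Both had coefficients of variation below 4%, Mmp14 at 2.93% and Mmp23 at 3.37%.

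Mmp19, a secreted protease of basement membrane proteins, stood at 72.7, 80.7 and 75.2 TPM. Mmp11 (stromelysin 3, which furin activates inside the cell) stood at 44.2, 44.1 and 38.3 TPM. By scaled reads each had its libraries within 1.15-fold of each other, and neither passed the test of spread described below. In GRCr8 Mmp11 overlaps Chchd10, which stood at 147 TPM and has counts that are not whole, and since the counting is not stated to use strand, reads of the 2 cannot be told apart. Mmp2 (gelatinase A, which cuts denatured collagen and collagen IV) stood at 22.2, 56.5 and 35.5 TPM, so that its highest library lay above and its lowest below all 3 libraries of Mmp11.

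The remaining MMPs were low. The other membrane-type enzymes with transmembrane anchors were Mmp16 at 6.82, 8.80 and 8.74 TPM, Mmp24 at a mean of 2.53 TPM and Mmp15 at 1.11 TPM. Mmp14 exceeded Mmp16 by 70.0, 53.0 and 51.5 times in the 3 libraries. Mmp17, held by a lipid anchor, stood at 1.45, 2.59 and 1.08 TPM, and the other lipid-anchored member, Mmp25, had 3, 2 and 2 reads. Mmp28 (epilysin) stood at 2.85, 2.71 and 6.43 TPM, and its counts are not whole. Mmp12 (macrophage elastase) stood at a mean of 5.10 TPM and, alone among the 5 clustered genes measured, lay above 1 TPM.

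The collagenases and stromelysins of that cluster were at the limit of counting. Mmp13 (collagenase 3) had 3, 0 and 3 reads and Mmp8 (neutrophil collagenase) 0, 1 and 0 reads. Mmp3 (stromelysin 1) had 5, 2 and 3 reads and Mmp10 (stromelysin 2) 2, 0 and 1 reads. Mmp9 (gelatinase B), which lies elsewhere, had 0, 2 and 1 reads. A count of 0 allows up to 3 reads, or 0.157 CPM (reads scaled to library size) in ATR 1 and 0.160 CPM in ATR 2, for counting error alone. At this depth these genes cannot be ordered among themselves.

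Among the ADAMTS genes, Adamts1 and Adamts10 together made up 60.6% to 64.8% of the summed level. Adamts1, the versican-cutting protease, stood at 225, 249.7 and 217 TPM, with ATR 2 above the others. Adamts10, which binds fibrillin 1 and is known from human lens and skeletal disease, stood at 141, 121 and 120.15 TPM, with ATR 1 above the others. The aggrecanases were lower: Adamts5 stood at 57.2, 49.2 and 60.6 TPM and Adamts4 at 9.91, 6.96 and 7.63 TPM. Adamts1 and Adamts5 are direct neighbours on the chromosome, and Adamts1 exceeded Adamts5 by 3.93, 5.08 and 3.57 times and Adamts4 by 22.7, 35.9 and 28.4 times. Adamts9, a further versican-cutting member, stood at 1.02, 1.75 and 0.92 TPM. The neighbouring pair Adamts8 and Adamts15 had 6, 3 and 3 reads and 3, 3 and 1 reads, and Adamts20 had 4, 2 and 1 reads.

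The pair known for cutting cartilage oligomeric matrix protein were both well expressed, with Adamts7 at 58.7, 55.5 and 54.3 TPM and Adamts12 at 63.1, 47.4 and 55.1 TPM. The libraries of Adamts7, Adamts5 and Adamts12 overlapped, so the order of these 3 genes is not resolved. Their named substrate, Comp, stood at 0.307 TPM. Of the enzymes that remove the amino-terminal propeptide of procollagens, Adamts2 stood at 22.9, 22.5 and 20.4 TPM and made up 85.8% to 91.3% of the sum of the 3. Adamts14 stood at 0.89, 2.27 and 1.51 TPM and Adamts3 at a mean of 1.51 TPM. Of the rest, Adamts16 stood at 6.74, 5.05 and 6.70 TPM, Adamts6 (the closest relative of Adamts10) at a mean of 8.45 TPM and Adamts19 at 0.600 TPM. Adamts17 had 16.06, 3 and 10 estimated reads. Adamts13, which cuts von Willebrand factor, had 0, 0 and 2.37 estimated reads, and its substrate Vwf stood at 0.137 TPM. In GRCr8 Adamts13 overlaps Cacfd1.

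The ADAMTS-like genes were low to moderate. Adamtsl5, which binds fibrillin microfibrils, stood at 20.7, 21.7 and 21.1 TPM, with counts that are not whole, and Adamtsl4, of the lens zonule microfibrils, at 12.4, 13.2 and 11.7 TPM. Adamtsl3 stood at 7.67, 5.35 and 8.51 TPM and Adamtsl1 at a mean of 1.37 TPM. Adamtsl2 had 5, 7 and 5 reads.

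Of the inhibitors, 3 were abundant and the fourth was nearly unread. Timp1, a weak inhibitor of the membrane-type MMPs, stood at 448, 499 and 486 TPM, and was lowest in ATR 1. Timp2, which bridges MMP14 and the MMP2 precursor, stood at 447, 444 and 428 TPM. Timp3, which stays bound to the matrix and also inhibits the ADAMTS aggrecanases, stood at 101, 101 and 105 TPM. Timp4 had 1, 2 and 2 reads. Timp1, Timp3 and Timp4 overlap the synapsin genes Syn1, Syn3 and Syn2 in GRCr8, which stood at 1.47, 2.64 and 0.867 TPM.

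The summed levels of inhibitors and proteases were compared by family. The 4 Timp genes summed to 996, 1043 and 1019 TPM, the 17 Mmp genes to 906, 950.05 and 887 TPM and the 18 Adamts genes to 596, 572 and 556 TPM. The Timp to Mmp ratio was 1.10, 1.10 and 1.15 in the 3 libraries. On the CPM scale, without scaling for length, it was 0.799 on average, below 1, so which family was higher depended on length scaling. Timp2 stood at 0.936, 0.951 and 0.951 of the Mmp14 level, while Mmp14 exceeded Mmp2 by 21.5, 8.25 and 12.7 times. Timp3 stood at 0.170, 0.176 and 0.190 of the summed Adamts level. These are ratios of transcripts and not of proteins or of activity.

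**Figure D3:**
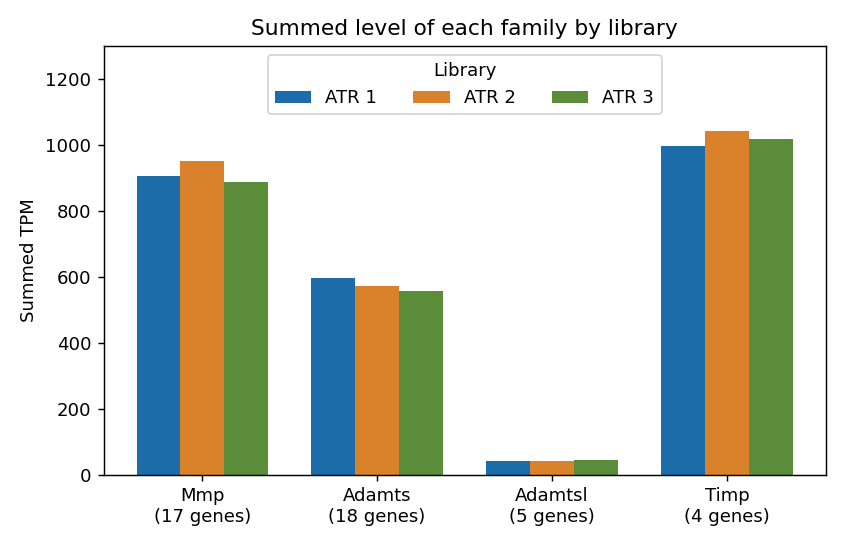
Summed TPM of the Mmp, Adamts, Adamtsl and Timp genes in ATR 1, ATR 2 and ATR 3, 1 bar a library, on an axis from 0. The Timp bars (996 to 1043 TPM) stand above the Mmp bars (887 to 950.05 TPM) in each library on this scale, though the mean ratio was 0.799 on the CPM scale, and the 5 Adamtsl genes sum to 41.7 to 43.1 TPM.

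Spread between the libraries beyond counting noise was tested by a chi-square test of each gene's 3 counts against the scaled library sizes, fitted over all genes with at least 30 reads in all. It compares these libraries and not conditions. It called 15 of the 31 members tested, or 48.4%, against 23.2% of all 13309 genes tested. The median total was 1326 reads for the tested members and 1368 for all tested genes. Of the 15, 7 were highest in ATR 2 (46.7%), 4 in ATR 1 and 4 in ATR 3 (26.7% each). Of all 3087 called genes, 32.0% were highest in ATR 2, 35.6% in ATR 1 and 32.4% in ATR 3. The highest library exceeded the lowest by more than 1.5 times in 8 of the 31 members, or 25.8%, against 11.2% of all genes tested. With ATR 1 left out the test called 11 of 31 members against 11.9% of all genes, with ATR 2 left out 9 of 31 against 14.6%, and with ATR 3 left out 14 of 31 against 17.3%. These counts describe the members beside the table as a whole and were given no test of their own.

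**Figure D4:**
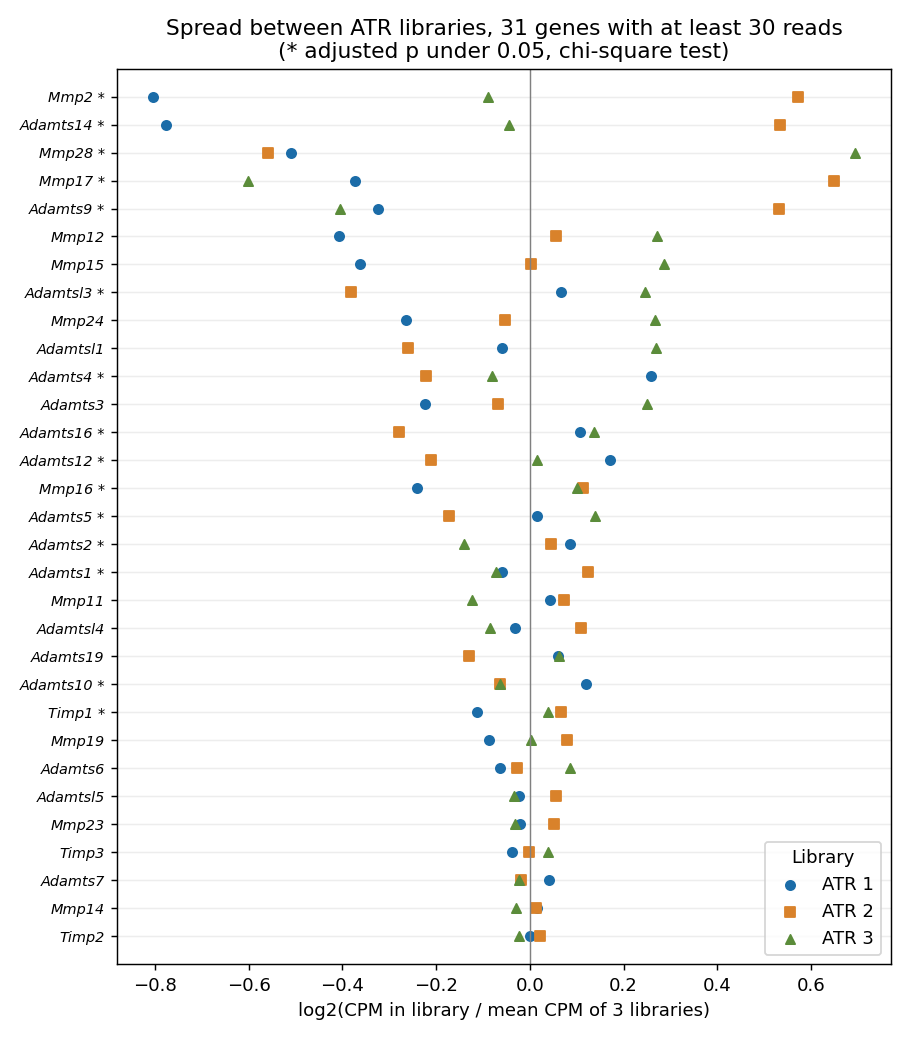
log2 of CPM in each ATR library over the mean of the 3, for the 31 genes with at least 30 reads, ordered from the widest spread to the narrowest. Stars mark the 15 genes called by the chi-square test. Mmp2 and Adamts14 lie furthest below their means in ATR 1 and Timp2 has the narrowest spread.

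Mmp2 had the largest ratio of highest to lowest library among the 31 members tested. The intervals of Adamts14, Mmp28 and Mmp17, given below, overlap that of Mmp2. Mmp28 and Mmp17 had larger coefficients of variation, 52.8% and 46.1% against 45.4%. In Mmp2, ATR 2 exceeded ATR 1 by 2.60 times (exact 95% interval 2.36 to 2.86, from 1544 and 604 reads, counting error only). ATR 3 lay between them. The adjusted p of Mmp2 was 8.9e-95 by the chi-square test with Benjamini-Hochberg adjustment. The call held with any library left out, at adjusted p of 2.3e-20 or less. Mmp2 was 1 of 4 called members that were highest in ATR 2 and lowest in ATR 1, the others being Timp1, Mmp16 and Adamts14. That order was found in 21.9% of all 3087 called genes. Adamts14 had a ratio of 2.48 (1.71 to 3.66) and an adjusted p of 2.6e-05. Its call was lost without ATR 1 (adjusted p = 0.074) and without ATR 2 (0.062). Mmp16 had a ratio of 1.28 (1.10 to 1.49) and Timp1 one of 1.13 (1.08 to 1.19), both lost without ATR 1 (adjusted p = 0.97 for Mmp16 and 0.74 for Timp1).

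Markers of stromal fibroblasts moved in part with Mmp2. Of the 8 measured, 5 were lowest in ATR 1, among them Thy1, Prrx1 and Pdgfra, which had 4.64, 3.92 and 4.04 times as many scaled reads in ATR 2 as in ATR 1. Tcf21 had 0 reads in ATR 1. Dcn, Col14a1 and Ogn were highest in ATR 1, and the summed level of the list was 613, 645 and 643 TPM. Other lists held such genes too. Of 6 measured leukocyte markers, 4 were lowest in ATR 1 and 4 highest in ATR 2. The 1 called for spread, Lyz2, was highest in ATR 3, and none of those highest in ATR 2 was called. Des and Fst, of the muscle and granulosa lists, were also highest in ATR 2 and lowest in ATR 1. The summed levels of those 2 lists were highest in ATR 1 instead. The part of any of these markers in the spread of Mmp2 was not tested.

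The other members high in ATR 2 were Adamts1, Adamts9 and Mmp17. Adamts1 exceeded its lowest library by 1.15 times (1.11 to 1.18) with an adjusted p of 5.3e-23, Adamts9 by 1.91 times (1.42 to 2.60) and Mmp17 by 2.38 times (1.58 to 3.64). ATR 1 and ATR 3 were not told apart for any of these 3 without ATR 2, at adjusted p of 0.798, 0.890 and 0.744 for Adamts1, Adamts9 and Mmp17.

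Of the 15 called members, 6 (40%) were lowest in ATR 2, near the 36.5% of all called genes. They were Mmp28, given below, and the ADAMTS and ADAMTS-like genes that follow. Adamts12 was lower in ATR 2 than in ATR 1 by 1.30 times (1.25 to 1.36), with an adjusted p of 6.4e-31, and was called with any library left out, at 5.8e-06 or less. Adamtsl3 spanned 1.55 times (1.35 to 1.78), Adamts16 1.34 times (1.13 to 1.58) and Adamts5 1.24 times (1.15 to 1.34), each highest in ATR 3, and these calls were lost without ATR 2 (adjusted p = 0.197, 0.909 and 0.101). Adamts4 spanned 1.39 times (1.16 to 1.67), highest in ATR 1, and lost its call without ATR 1 (adjusted p = 0.609). The neighbours Adamts1 and Adamts5 therefore had opposite extremes, Adamts1 highest and Adamts5 lowest in ATR 2.

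Adamts10, Adamts2 and Mmp28 complete the called members. Adamts10 was higher in ATR 1 than in ATR 3 by 1.14 times (1.09 to 1.18), with no difference called between the other libraries (adjusted p = 0.991 without ATR 1). Adamts2 spanned 1.17 times (1.07 to 1.27) and Mmp28 2.38 times (1.62 to 3.58), and neither was called without ATR 3 (adjusted p = 0.733 for Adamts2 and 0.951 for Mmp28). Mmp28 was highest in ATR 3 and lowest in ATR 2.

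The leading genes outside these groups were steady. Mmp14 differed by 1.03 times (1.00 to 1.06) between its highest and lowest libraries, Timp2 by 1.03 times (0.995 to 1.07), Mmp23 by 1.06 times (1.01 to 1.11), Timp3 by 1.05 times (1.01 to 1.10) and Adamts7 by 1.04 times (0.988 to 1.10). None of these 5 passed the threshold, and the intervals, which cover counting error only, reach at most 1.11 times. The 7 tested members under 10 TPM that were not called were Adamts6, Mmp12, Mmp24, Adamts3, Adamtsl1, Mmp15 and Adamts19, whose counts of 25 to 461 reads a library leave wider intervals. Mmp12, for example, spanned 1.60 times (1.15 to 2.23) with an adjusted p of 0.057.

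Genes that act on the proteases were described from a list. Of 24 measured activators, anchors and inhibitors outside the 4 families, 21 reached 1 TPM and 7 reached 100 TPM, where 71.4% and 10.7% of all genes did. Of 21 tested, 10 were called for spread, against 23.2% of all genes tested. Furin, the propeptide-cutting convertase that activates Mmp11, Mmp14 and Mmp23 products, stood at 199.65, 209 and 192 TPM. Bsg (basigin, the inducer of MMPs) stood at 1913 ± 39.7 TPM and Lrp1, the receptor that takes up MMPs and TIMPs, at 233 ± 1.37 TPM (SD, n = 3 each). Reck, a membrane-anchored MMP inhibitor, stood at 24.3, 26.3 and 24.1 TPM. Plat (tissue plasminogen activator) stood at 195 ± 6.57 TPM (SD, n = 3), while Plg itself, the source of plasmin, stood at 0.123 TPM. A2m, a broad protease trap, had 1.87, 8.57 and 3.22 TPM, the library order of Mmp2.

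Substrates of these proteases were listed in the same way. Of 14 measured, 11 reached 1 TPM and 8 reached 100 TPM, where 71.4% and 10.7% of all genes did. Of 12 tested, 10 were called, against 23.2% of all genes tested, and a test of counts calls genes of many reads more readily. Vcan (versican, the substrate of Adamts1) stood at 108, 126 and 126 TPM and Acan (aggrecan) at 16.0, 108 and 54.8 TPM. Col1a2 stood at 287, 801 and 601 TPM, with counts that are not whole, and Col3a1 at 418, 704 and 523 TPM. Of the 20 called genes of both lists, 8 (40%) were highest in ATR 2 and lowest in ATR 1 like Mmp2, the order found in 21.9% of all called genes, among them Col1a1, Col1a2, Col3a1, Acan, A2m, Adam12 and Plaur. Col4a1 and Col4a2, the chains of basement membrane collagen, were lowest in ATR 2 instead, at 1013 TPM for Col4a1 against 1063 and 1088 TPM in ATR 1 and ATR 3.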

How the data were processed

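Libraries were made from poly(A) RNA with random primers and read in pairs, per the labels' protocols, which describe no strand-marking step. The authors deposited a TPM value and an estimated count of reads for each gene and library, per the file headers. HISAT2 2.2.1, StringTie 2.1.5 and fastp 0.20.1, with the builds Rnor_6.0 and GRCm38, stand without roles in the submitters' processing notes. Estimated counts were rounded and scaled with TMM (edgeR 4.0.16, R 4.3.3). CPM values, reads scaled to library size, use those sizes. In a library 19.0% to 19.2% of estimated counts lie more than 0.001 from a whole number, as do those of 4 members.

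Spread was tested by chi-square over genes totalling 30 reads or more, and p-values were adjusted over all of them (Benjamini-Hochberg, threshold 0.05). The test was checked on simulated counts. Ratios carry exact (Clopper-Pearson) 95% intervals, and molecules carry no identifiers, so these cover counting error only. Library values are given for members at 10 TPM or more, members called, Mmp9 and Mmp13, and the other members are given by their mean if tested and by their reads if not. The contrast planned in edgeR between ATR and Control was not run. The members and the gene lists were chosen with earlier results of these data known. Roles were assigned to 51 symbols, of which Mmp1, Mmp7, Mmp20, Mmp21, Mmp26, Mmp27 and Adamts18 are not analysed here. Sequences are RefSeq's, matched by gene ID. Scripts ran in Python 3.11.15 with scipy 1.17.1, pandas 2.3.3, numpy 2.4.6 and matplotlib 3.10.9.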

Additional observations from a re-analysis of the deposited data

How the results depend on the processing

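No paired analysis was possible because no Control library was analysed here, and no alternative planned for that contrast was run. The count of members at 1 TPM or more was 30. It was 31 at 0.5 TPM, 22 at 5 TPM and 31 at 1 CPM, and 29 to 30 with a library left out. The count called for spread was 15. It was 15 of 31 with DESeq2 1.42.0 size factors, or 48.4% against 23.1% of all genes tested. With library totals it was 18 of 31 (Mmp11, Mmp14 and Mmp19 added), or 58.1% against 23.8%. Among genes with whole counts it was 14 of 29, or 48.3% against 20.9%. With at least 10 reads it was 15 of 35, or 42.9% against 21.7%. With no filter it was 15 of 44, or 34.1% against 17.5%. With a library left out it ranged from 9 (without ATR 2) to 14 (without ATR 3), from a test on fewer libraries. Only Mmp2 and Adamts12 were called with each library left out in turn. The Timp to Mmp ratio of 1.12 was 0.799 with CPM in place of TPM and 0.593 without Timp1, and 1.10 to 1.12 with a library left out. The library ratios of the named members stayed within their counting intervals in all 72 recomputations with other scaling or deposited TPM. The 13 members under 30 reads cannot be ranked at this depth.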
